A study of Mus musculus with 4 samples.

Results

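Zinc-finger protein (Zfp) genes were examined in peak lists of the transcription factor ELF1, as the set of peaks that the authors' annotation ties to a gene whose symbol starts with Zfp and a digit. A peak entered the set if such a symbol stood as its nearest gene or among the gene features it lies in, on chromosomes 1 to 19. The rule took 57 of 10405 autosomal peaks (11085 on all chromosomes). They came as 28 of 5288 autosomal peaks from wild-type cells (0.530%, 95% interval 0.352 to 0.764) and 29 of 5117 from Elf1 knockout cells (0.567%, 0.380 to 0.813). The choice rests on where peaks were called, so these counts are a description.

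Chromatin immunoprecipitation with an ELF1 antibody and sequencing (ChIP-seq) was done on bone-marrow-derived macrophages, phagocytes grown in culture from marrow, of wild-type (WT) and Elf1 knockout (KO) mice. Cells of both genotypes had been brought to the inflammatory M1 state with lipopolysaccharide (LPS), a component of bacterial cell walls, for 6 h. Each genotype had 1 immunoprecipitated library and 1 input library, so there is no replicate, no test between genotypes, and no measure of how far repeated libraries would differ. The labels give neither the allele, strain, sex and age nor the number of mice, and peak lists hold no expression values by which cell identity or the loss of ELF1 could be checked.

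Each peak carries the authors' pileup, which is the number of fragments stacked at its summit, and a fold enrichment, which is that pileup over a local background with 1 added to both. The background recovered from these values, called the implied background, is in fragments. The lists give no library totals, so depth is unknown. Intervals are exact and 95% (Clopper-Pearson for shares, Poisson for densities, order statistics for medians), and they cover counting error only.

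Most Zfp genes encode C2H2 zinc-finger proteins, in which a row of fingers, usually encoded by the last exon, reads DNA sequence. Many also carry a KRAB domain that recruits the corepressor TRIM28 and, through it, the histone methyltransferase SETDB1, and these proteins are best known for silencing retrotransposons. The family grew by repeated local duplication, which left tandem clusters of closely similar genes. ELF1 is an ETS factor, a family that reads a GGAA core, with CCGGAAGT as a common high-affinity form.

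The 7 peaks that lay within 1000 bp of a start site or passed an authors' q of 0.05 are printed first, because the results below turn on their position, height and sequence. They are given on the plus strand of GRCm38, and capitals mark every GGAA or its reverse complement TTCC. The WT peaks lay at chr4:147641815-147642070 (Zfp979), chr4:146096531-146096752 (Zfp987), chr13:67526872-67527095 (Zfp87) and chr4:146532256-146532545 (Zfp981). The KO peaks lay at chr4:147553114-147553394 (Zfp985), chr17:33620178-33620449 (Zfp414) and chr8:43286514-43286730 (Zfp42).
Zfp979: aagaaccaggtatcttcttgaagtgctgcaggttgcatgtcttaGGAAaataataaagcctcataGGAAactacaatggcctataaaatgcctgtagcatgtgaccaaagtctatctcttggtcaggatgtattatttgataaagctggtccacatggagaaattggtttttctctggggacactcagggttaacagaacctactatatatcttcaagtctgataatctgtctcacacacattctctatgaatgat
Zfp987: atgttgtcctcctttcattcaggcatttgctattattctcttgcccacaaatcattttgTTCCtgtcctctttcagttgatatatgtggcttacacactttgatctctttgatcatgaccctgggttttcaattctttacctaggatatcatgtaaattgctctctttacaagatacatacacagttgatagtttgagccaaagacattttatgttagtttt
Zfp87: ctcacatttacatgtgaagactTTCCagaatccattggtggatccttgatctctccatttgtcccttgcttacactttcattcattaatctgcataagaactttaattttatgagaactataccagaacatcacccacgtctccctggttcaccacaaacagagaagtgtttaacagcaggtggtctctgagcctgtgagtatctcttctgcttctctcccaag
Zfp981: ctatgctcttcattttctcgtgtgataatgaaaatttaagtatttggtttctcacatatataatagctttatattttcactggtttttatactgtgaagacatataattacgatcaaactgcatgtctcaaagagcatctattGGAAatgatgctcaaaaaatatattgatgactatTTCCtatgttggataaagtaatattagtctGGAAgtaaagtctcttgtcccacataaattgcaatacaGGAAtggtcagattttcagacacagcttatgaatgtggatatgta
Zfp985: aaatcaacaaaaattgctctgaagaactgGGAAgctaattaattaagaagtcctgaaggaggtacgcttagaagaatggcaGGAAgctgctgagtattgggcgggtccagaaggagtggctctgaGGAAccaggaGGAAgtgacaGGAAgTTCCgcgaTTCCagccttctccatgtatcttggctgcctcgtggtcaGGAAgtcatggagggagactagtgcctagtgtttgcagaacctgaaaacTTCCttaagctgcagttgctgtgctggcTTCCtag
Zfp414: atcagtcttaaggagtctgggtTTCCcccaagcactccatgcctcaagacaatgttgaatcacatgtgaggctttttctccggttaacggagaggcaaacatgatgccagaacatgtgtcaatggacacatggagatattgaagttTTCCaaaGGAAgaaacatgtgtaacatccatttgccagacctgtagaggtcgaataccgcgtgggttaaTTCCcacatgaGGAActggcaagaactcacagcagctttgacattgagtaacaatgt
Zfp42: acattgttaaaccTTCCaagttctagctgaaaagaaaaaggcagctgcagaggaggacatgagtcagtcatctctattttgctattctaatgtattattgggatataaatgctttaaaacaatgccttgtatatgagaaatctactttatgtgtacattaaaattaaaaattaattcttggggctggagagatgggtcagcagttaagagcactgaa
The Zfp979 stretch holds 2 such cores and the Zfp981 stretch 4, whereas Zfp987 and Zfp87 hold 1 each. Among the KO peaks, Zfp985 holds 10 cores in 281 bases, Zfp414 holds 5 and Zfp42 holds 1.

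The tallest and most enriched Zfp peaks were few. In the WT list, the Zfp979 peak had a pileup of 13 over an implied background of 1.00, which gave a fold of 7.0 and a −log10 q of 6.16. The next highest −log10 q of the set was 1.84. The Zfp981 peak had the same pileup of 13 over a background of 2.32, with a fold of 4.22, and it was the one with that second-ranked q. In the KO list, the Zfp414 peak had a pileup of 9, a fold of 4.88 and a −log10 q of 1.77. The peak nearest to Zfp42, the gene of the pluripotency marker REX1, was intergenic and centred 20358 bp from its start, past the gene's end. It had a pileup of 9, a fold of 4.49 and a −log10 q of 1.33. These 4 were the peaks with q under 0.05, 2 of 28 in WT and 2 of 29 in KO, where the background over all autosomal peaks was 5.16% in WT and 5.73% in KO. The members' shares, 7.14% (0.877 to 23.5) and 6.90% (0.846 to 22.8), had intervals that span those values.

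The rest were shallow. A pileup of 8 or less was found in 24 of 28 WT and 26 of 29 KO Zfp peaks (85.7% and 89.7%), against 90.7% and 88.3% of the other autosomal peaks. The median pileup was 7 (6 to 8) in WT and 6 (6 to 7) in KO, and the medians over the other peaks were 6 and 7. The median fold was 3.77 (3.50 to 4.00) in the WT set beside 3.50 over the other WT peaks, and 3.42 in the KO set beside 3.42. The implied background stood at the lowest value of its list at 14 of 28 WT and 13 of 29 KO Zfp peaks, namely 1.00 fragments in WT and 1.05 in KO. At pileups of 5, 6 and 7 it did so at 405, 718 and 447 of 5288 autosomal WT peaks, with 2, 5 and 6 Zfp peaks among them. In KO these were 495, 963 and 615 of 5117, with 1, 7 and 3 Zfp peaks among them. Whether Zfp peaks differ from the rest in this was not tested. At that lowest background a pileup of 6 gives a −log10 p of 4.08 in WT and 3.95 in KO.

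**Figure D1:**
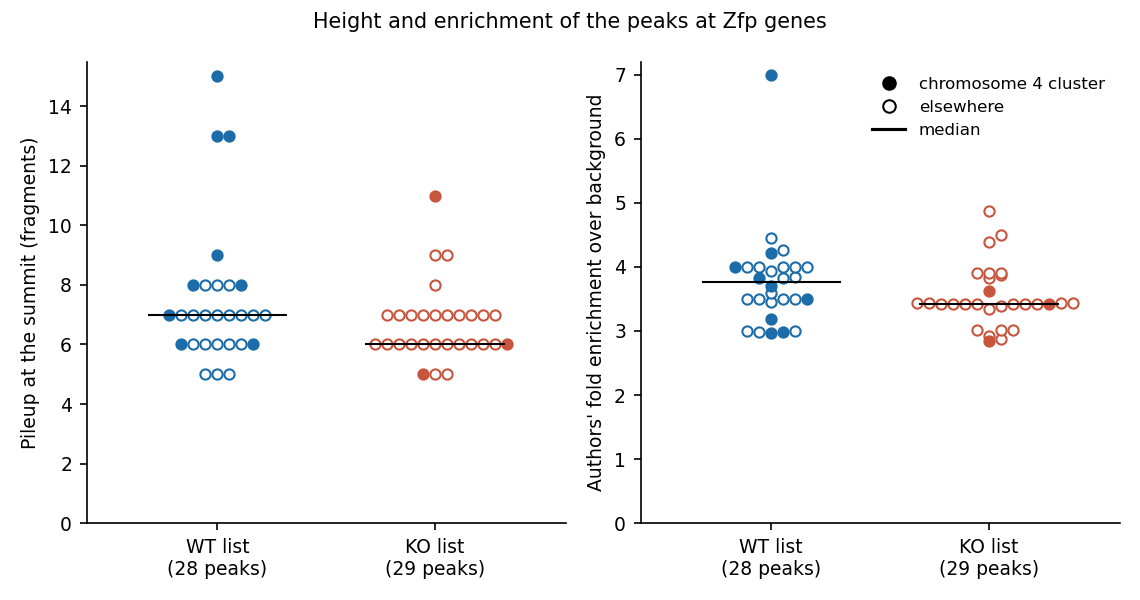
Authors' pileup at the summit in fragments (left) and authors' fold enrichment (right) of every Zfp peak, 28 in WT and 29 in KO; each point is 1 peak, filled points lie in the chromosome 4 cluster and bars are medians. The Zfp978, Zfp979 and Zfp981 peaks, with pileups of 15, 13 and 13, stand above the other WT points on the left, and Zfp979 stands alone at a fold of 7.0 on the right.

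Height and enrichment did not go together at Zfp978 and Zfp600. The Zfp978 peak of the WT list, in intron 2 of the gene, had the highest pileup of the set, 15, but over a background of 4.39, so its fold was 2.97 and its −log10 q 0.555. The Zfp600 peak, the tallest of the KO set with a pileup of 11, stood over a background of 2.32 and had a fold of 3.62. The Zfp981 peak in WT had a background of the same size as that at Zfp600. The 4 WT peaks with a pileup of 9 or more (Zfp978, Zfp979, Zfp981 and 1 of the 2 in Zfp982) all lay in 1 gene cluster on chromosome 4, and none of the 19 WT peaks elsewhere reached 9 (upper bound 17.6%).

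Below these, folds clustered on a few steps. In WT, the upper ranks after Zfp979 were a Zfp804b peak (pileup 8, fold 4.45), a Zfp521 peak (pileup 8, fold 4.26) and Zfp981, followed by 6 peaks with a pileup of 7 over the lowest background and a fold of 4.00. Those 6 were Zfp87, Zfp931, Zfp987, a further Zfp804b peak, Zfp810 and Zfp609. In KO, Zfp800 (pileup 8, fold 4.39) followed Zfp414 and Zfp42. Next came Zfp169, Zfp804a and Zfp78 at a fold of 3.90, Zfp120 at 3.88, Zfp652 at 3.82, Zfp600 at 3.62 and Zfp804b at 3.44.

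No Zfp peak of one list overlapped a peak of the other, 0 of 57. The background is as high: 99% of autosomal WT peaks and 98.9% of autosomal KO peaks had no counterpart. The closest approach was in Zfp804b, where a WT and a KO peak lay 8.07 kb apart. The median distance to the nearest peak of the other list was 191 kb for WT and 139 kb for KO Zfp peaks. This distance was not computed for the other autosomal peaks, so it cannot be read as a trait of Zfp peaks.

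By gene, the peaks named 45 of the 407 autosomal Zfp genes of the GENCODE M21 annotation, 385 of which are protein-coding. WT peaks named 23 (5.65%, 3.62 to 8.36) and KO peaks 26 (6.39%, 4.22 to 9.22). Over all 51229 autosomal genes the background was 10.2% in WT and 9.98% in KO, and over protein-coding genes it was 9.66% (9.26 to 10.1) and 9.34% (8.95 to 9.74). The WT interval for Zfp genes lay below that for protein-coding genes, and the KO intervals overlapped. The difference was not tested.

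Gene length moved with being named. The median Zfp gene was 29.3 kb long if either list named it and 16.0 kb if neither did. Of the 24 Zfp genes of 100 kb or more, 7 were named in WT and 8 in KO (29.2% and 33.3%), beside 35.5% and 35.3% of protein-coding genes of that length. Of the 383 shorter ones, 16 and 18 were named (4.18%, 2.41 to 6.70, and 4.70%, 2.81 to 7.33), beside 6.34% (5.99 to 6.70) and 6.00% (5.66 to 6.35). Within each length class the intervals met. Per megabase of gene body, Zfp genes held 1.65 WT peaks (1.02 to 2.53) and 1.42 KO peaks (0.841 to 2.24), beside 1.89 and 1.78 over protein-coding gene bodies.

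**Figure D2:**
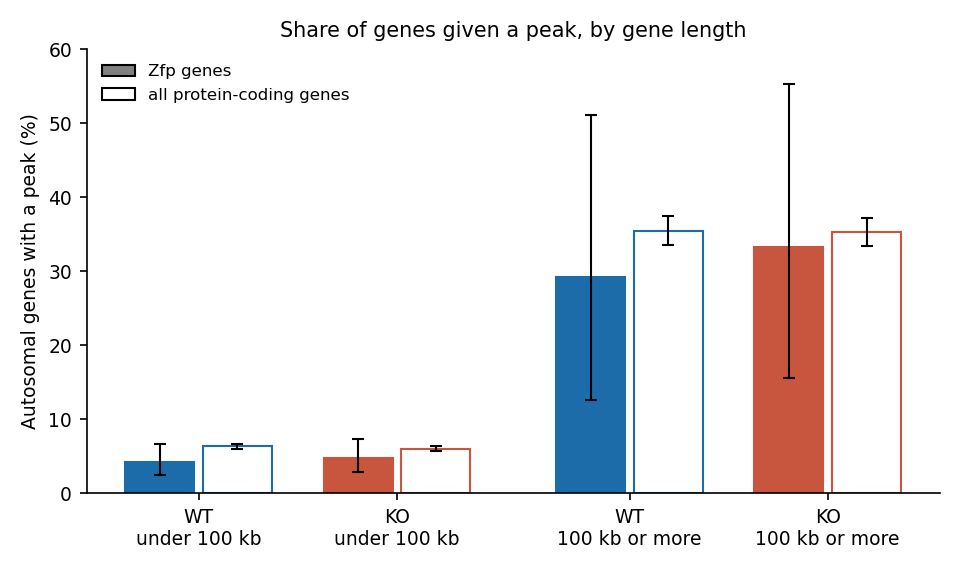
Share of autosomal genes with a peak, in percent, for Zfp genes (filled bars) and all protein-coding genes (open bars), by list and by gene length under 100 kb or of 100 kb and more; error bars are exact 95% intervals. The Zfp shares are 4.18% and 4.70% for short genes and 29.2% and 33.3% for long ones, each below the open bar beside it but with an interval that reaches that bar's interval.

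Both lists named 4 Zfp genes (0.983%, 0.268 to 2.50), beside 3.19% of all autosomal genes. Among genes of 100 kb or more the shares were 12.5% (2.66 to 32.4) of Zfp and 18.8% (17.2 to 20.4) of protein-coding genes. Among shorter genes they were 0.261% (0.00661 to 1.45) and 1.00% (0.865 to 1.16). The intervals met in both length classes. The 4 genes were Zfp804b, Zfp521, Zfp804a and Zfp353-ps, and in none did the peaks coincide. Zfp804b, the longest at 576 kb, held 4 peaks, 3 WT and 1 KO, all in its first intron. Its WT peaks had pileups of 8, 8 and 7 and its KO peak had 7. The closest WT and KO pair there is the one 8.07 kb apart, and the farthest pair lay 230 kb apart. Zfp521, which encodes a regulator of stem and progenitor cells in blood and brain, had 3 peaks. Its WT peak lay past the gene's end and its KO peaks, both with a pileup of 6, in intron 5, and the WT peak was 105 and 107 kb from them.

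At Zfp804a, whose human ortholog carries a schizophrenia risk association, the WT peak lay 31.1 kb inside the first intron with a pileup of 6. The KO peak there lay 108 kb upstream of the start, 139 kb from the WT peak, with a pileup of 7. At the pseudogene Zfp353-ps the WT and KO peaks were 68.8 kb apart. Of the other 41 genes, 19 were named by WT peaks alone and 22 by KO peaks alone. In all, 35 genes had 1 peak, 8 had 2, and Zfp521 and Zfp804b had 3 and 4. The 8 genes with 2 were Zfp353-ps and Zfp804a with 1 from each list, Zfp982, Zfp988 and Zfp612 with both from WT, and Zfp985, Zfp120 and Zfp800 with both from KO.

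By position, 23 of 28 WT peaks and 17 of 29 KO peaks carried a Zfp gene among the features the authors' annotation gives them, promoter labels included. The shares were 82.1% (63.1 to 93.9) and 58.6% (38.9 to 76.5), with intervals that overlap. The remaining 5 and 12 had a Zfp gene only as the nearest gene in that annotation, among them a KO peak that spans the start of Zfp985. WT Zfp peaks were intronic in 21 of 28 cases and intergenic in 3, whereas KO Zfp peaks were intronic in 14 and intergenic in 10 of 29. The shares of intronic peaks were 75.0% (55.1 to 89.3) and 48.3% (29.4 to 67.5), which overlap. Over the other autosomal peaks they were 37.4% and 37.2%, but the rule itself favours peaks inside genes. The median distance to the nearest start of any gene was 12.8 kb (7.999 to 30.953) in WT. In KO it was 10.7 kb (5.748 to 32.848). The medians over the other peaks, 28.9 kb in WT and 28.7 kb in KO, lay within those intervals.

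Near a start site there were 3 WT peaks and 1 KO peak, counted within 1000 bp, where the background over all autosomal peaks was 2.74% in WT and 2.56% in KO. The members' shares were 10.7% (2.27 to 28.2) and 3.45% (0.0873 to 17.8), with intervals that span the background. In WT, the Zfp979 peak lay 571 bp downstream of the start, in intron 1. The Zfp987 peak lay 656 bp upstream with a pileup of 7, and the Zfp87 peak lay 806 bp upstream, also with a pileup of 7. The one KO peak was centred 22 bp upstream of the start of Zfp985, with a pileup of 6, a fold of 3.42 and a −log10 q of 0.315. It spans that start (chr4:147553277), and its summit, at 147553292, lies inside the annotated gene. The authors' annotation calls that peak intergenic and gives a promoter label to Zfp987 and Zfp87 only. Just outside the limit was a KO peak 1086 bp downstream of the start of Zfp488, a gene of oligodendrocyte development.

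Exonic peaks came from the KO list. Its 4 exon peaks (13.8%, 3.89 to 31.7) lay in Zfp605, Zfp78, Zfp60 and Zfp748, each in the coding part of the last exon, which in such genes usually encodes the fingers. The Zfp78 peak had the neighbouring Zfp28 as its nearest start. Over the other KO peaks exons held 0.904%, but here too the rule itself favours peaks inside genes. The 4 exon peaks had pileups of 6, 7, 6 and 6, and none passed a q of 0.05. The WT list held no exon peak among its 28 (upper bound 12.3%), and its other peaks were exonic in 0.837%. It held 1 peak in the 3′ UTR of Zfp612, in exon 5 of 5, with a pileup of 6. With 1 library per genotype, whether the exon counts of 0 and 4 differ was not tested.

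**Figure D3:**
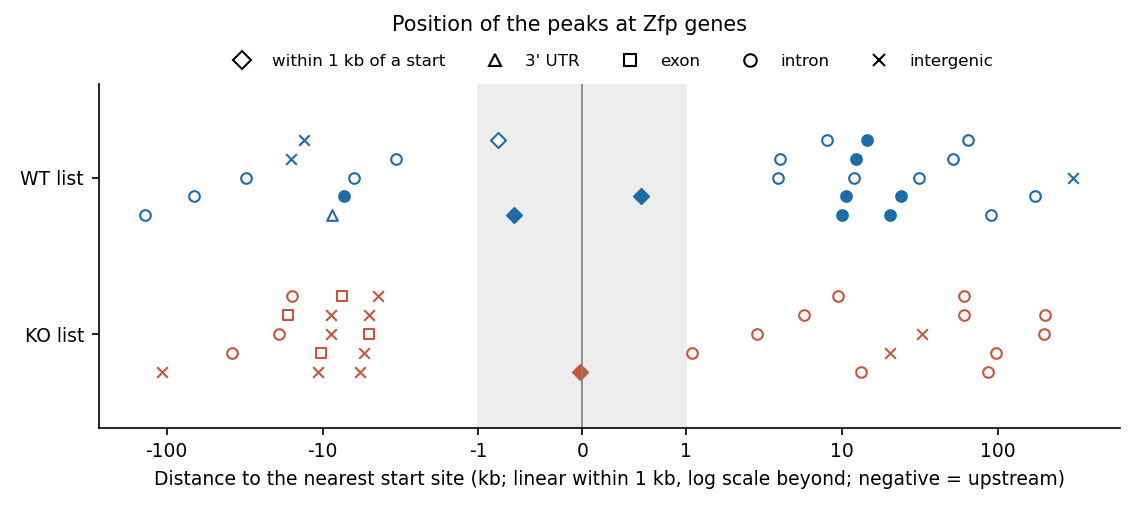
Distance from each Zfp peak's centre to the nearest start site of any gene, in kb, for the WT and KO lists; the axis is linear within 1 kb (shaded) and logarithmic beyond it, symbols give the annotation class, filled circles and diamonds lie in the chromosome 4 cluster, and vertical offsets only separate points. The shaded zone holds 3 WT diamonds and 1 KO diamond, and the 4 squares, which are exon peaks, are all from KO.

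The remaining intronic peaks were spread over long and short genes. In WT they lay in Zfp385b (409 kb long), Zfp462, Zfp609, Zfp438, Zfp644, Zfp810, Zfp772 and Zfp973, with pileups of 5 to 7. WT peaks that had a Zfp gene only as the nearest gene were those at Zfp706 (30953 bp away), Zfp931, Zfp353-ps and Zfp521 and 1 of the 2 at Zfp612. In KO they lay in Zfp423, a gene known in fat-cell precursors, and in Zfp407, Zfp827, Zfp652, Zfp800, Zfp936, Zfp169, Zfp120 and Zfp488, with pileups of 6 to 8. Nearest-only genes in KO outside the chromosome 4 cluster included Zfp518a, Zfp629, Zfp788, Zfp850, Zfp42 and Zfp414.

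Zfp genes were then grouped into clusters from the annotation alone, as runs of at least 3 Zfp genes with gaps of at most 500 kb. This gave 33 clusters with 245 of the 407 genes in 18.8 Mb. Counting every peak with its summit in a cluster, whatever gene it was assigned to, clusters held 36 WT and 32 KO peaks. That is 1.91 per Mb (1.34 to 2.65) in WT and 1.70 (1.16 to 2.40) in KO, beside 2.15 and 2.08 over the autosomes. Without the chromosome 4 cluster the densities were 1.58 (1.03 to 2.31) and 1.52 (0.981 to 2.24). Of the 33 clusters, 20 held a peak, 9 of them in both lists, 6 in WT alone and 5 in KO alone.

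The most peaks fell in the cluster from Zfp990 to Zfp933 on chromosome 4 (145510759 to 147848366), which holds 18 Zfp genes in 2.34 Mb. In mouse embryonic stem cells this distal chromosome 4 family is known for silencing endogenous retroviruses. It held 10 WT peaks (4.28 per Mb, 2.05 to 7.87) and 7 KO peaks (2.99 per Mb, 1.2 to 6.17). By Zfp assignment the numbers were further apart, 9 and 3, because 4 of the 7 KO peaks carried only other names (1700095A21Rik, Gm21411, Rex2 and Gm26573). Peaks with q under 0.05 numbered 2 in each list once those were counted, although the members among them were both WT.

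**Figure D4:**
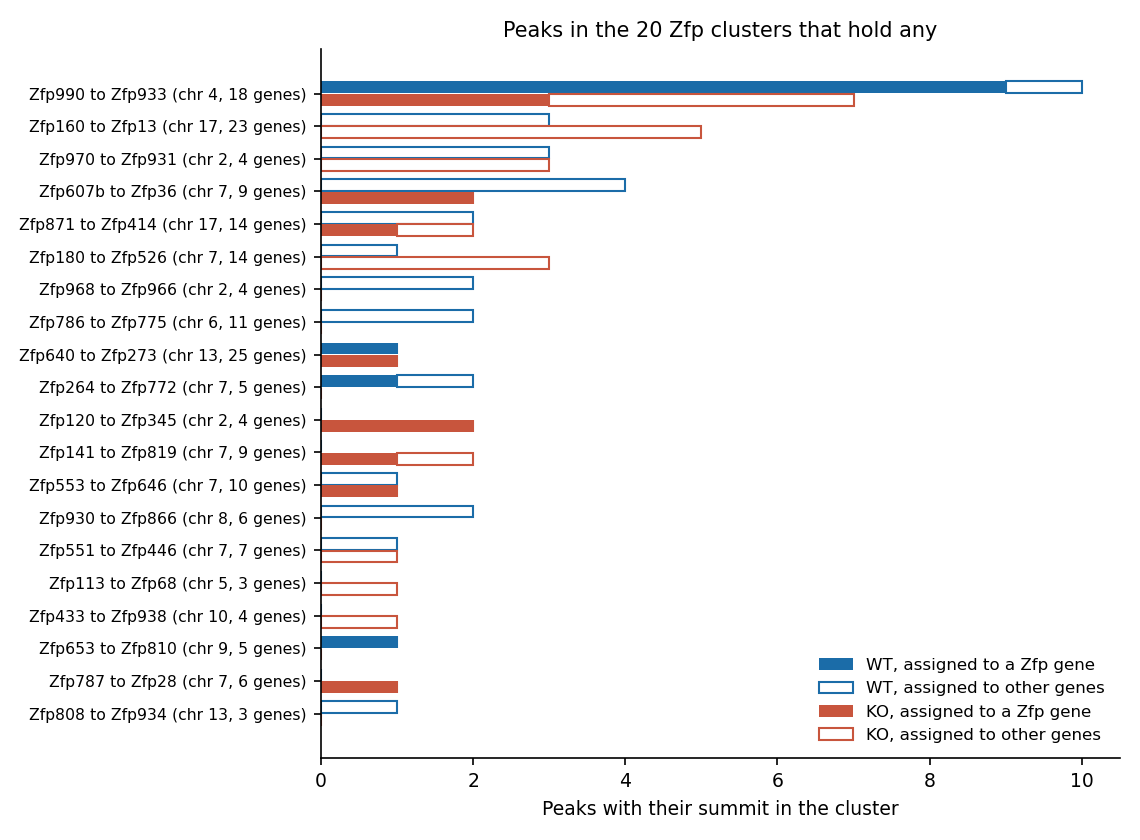
Number of peaks with their summit in each of the 20 Zfp clusters that hold any, WT above KO; filled bars are peaks assigned to a Zfp gene and open bars peaks assigned only to other genes. The chromosome 4 cluster from Zfp990 to Zfp933 leads with 10 WT and 7 KO peaks, of which 9 and 3 carry a Zfp name.

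Other clusters held few peaks each. The cluster from Zfp160 to Zfp13 on chromosome 17, with 23 Zfp genes in 2.59 Mb, held 3 WT and 5 KO peaks, none assigned to a Zfp gene. On chromosome 7, the cluster from Zfp607b to Zfp36 held 4 WT and 2 KO peaks, the KO ones at Zfp60 and Zfp850. The cluster from Zfp970 to Zfp931 on chromosome 2 held 3 of each. The cluster from Zfp871 to Zfp414 on chromosome 17 held 2 of each, and that from Zfp180 to Zfp526 on chromosome 7 held 1 WT and 3 KO peaks. A further 9 clusters held 2 peaks in all, 4 of them both from WT, 2 both from KO and 3 with 1 of each. Those from Zfp968 to Zfp966 and from Zfp786 to Zfp775 had 2 WT peaks and no KO peak (upper bounds 6.60 and 4.59 per Mb), as had those from Zfp264 to Zfp772 and from Zfp930 to Zfp866. The clusters from Zfp120 to Zfp345 and from Zfp141 to Zfp819 had 2 KO peaks and no WT peak (upper bounds 9.95 and 3.22 per Mb).

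Some large clusters were empty. The chromosome 7 cluster from Zfp84 to Zfp146, with 15 Zfp genes in 0.401 Mb, held no peak in either list (upper bound 9.19 per Mb). The clusters from Zfp628 to Zfp580, from Zfp560 to Zfp846 and from Zfp354c to Zfp354a, of 5 or 6 genes, held none either, with upper bounds of 26.6, 14.2 and 14.1 per Mb. These bounds lie above the autosomal density, so the gaps are not distinguishable from it at this number of peaks. The cluster with most genes, from Zfp640 to Zfp273 on chromosome 13 with 25, held 1 WT peak, the one at Zfp87, and 1 KO peak, in Zfp748.

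Tandem duplication bears on how reads can be placed. Every 31-base window of each peak was therefore looked up on the assembled chromosomes of GRCm38, on both strands. At least 50% of the windows occurred more than once in 9 of 28 WT and 7 of 29 KO Zfp peaks, 32.1% (15.9 to 52.4) and 24.1% (10.3 to 43.5). The shares over the other peaks were 17.2% and 22.2%. Of the 904 other WT peaks with such repetition, all but 80 were at least 50% soft-masked as repeats in the reference. Peaks that were repeated in this way yet under 50% repeat-masked numbered 5 in WT (17.9%, 6.06 to 36.9) and 2 in KO (6.90%, 0.846 to 22.8), beside 1.52% (1.21 to 1.89) and 1.65% (1.32 to 2.04) of the other peaks. All 7 lay in the chromosome 4 cluster. Outside it there was none among 19 WT and 26 KO Zfp peaks (upper bounds 17.6% and 13.2%). The Zfp973 peak of the WT list, on chromosome 2 and outside every cluster, narrowly missed the masking limit. It had 95.6% of its windows repeated and was 51.3% masked. A copy with 51.9% of its windows lay at chr2:177963457-177963690.

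**Figure D5:**
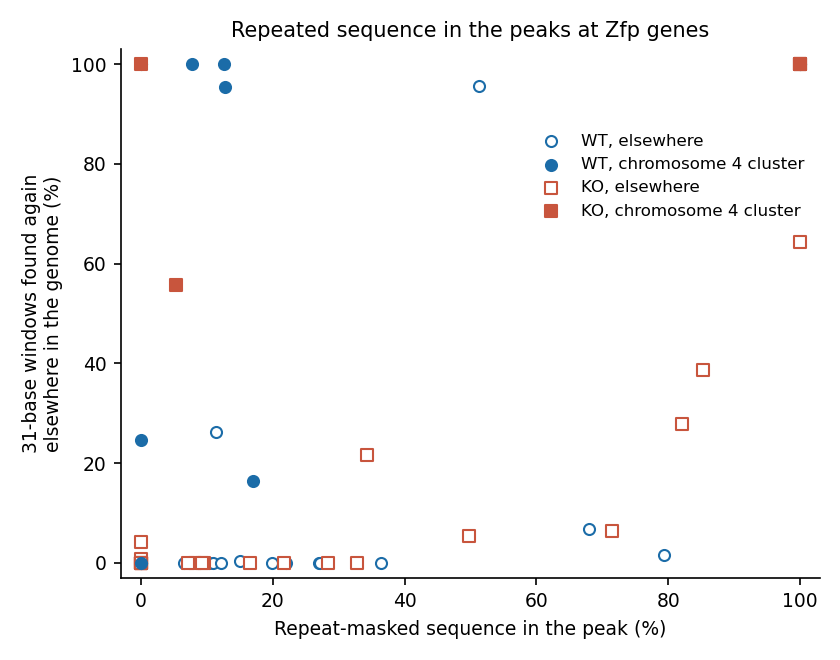
Share of 31-base windows found again elsewhere in the genome against the share of repeat-masked sequence, both in percent, for each Zfp peak; circles are WT and squares KO, filled symbols lie in the chromosome 4 cluster, and points can coincide. The upper left, where sequence is repeated but under 50% masked, holds filled symbols only, 5 from WT and 2 from KO.

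The Zfp979 peak, the most enriched of the set, was one of them. All of its 226 windows occurred more than once, and 5 other places on chromosome 4 held at least 50% of them. Of these, 2 matched in full, at chr4:147361746-147362001 in Zfp978 and at chr4:147022300-147022555 in Rex2. The match in Zfp978 lay 570 bp past that gene's start and the one in Rex2 lay 578 bp past, and the peak itself lay 570 bp past the start of Zfp979 in the GENCODE annotation. A further place, 592 bp past the start of Zfp600, held 86.3% of the windows. None of the 5 places carried a peak in either list, and no other peak shared a single window with the Zfp979 peak. Reads that match several places equally can be set down at any of them, and the alignment setting for such reads is not given in the sources used here, so the gene from which these fragments came cannot be told apart among the identical copies.

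Similar relations held at Zfp986, Zfp987 and Zfp988. The Zfp986 peak (intron 2, pileup 8) had complete copies in Zfp987 and Zfp534 and a copy with 98.8% of its windows in Zfp988, 605 bp from the second Zfp988 peak. All 192 windows of the Zfp987 upstream peak were repeated, and 91.1% of them recurred 691 bp upstream of the start of Zfp534, close to its own offset of 656 bp. The Zfp988 peaks, both with a pileup of 6, had 8 and 3 further copies, none under a peak.

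In the KO list, a copy of the Zfp600 peak did carry a peak. The Zfp600 peak, 5009 bp upstream of the start, had 2 complete copies, and 1 of these lay at another KO peak, chr4:147016722-147016937. That peak was 5020 bp upstream of the start of Rex2, had a pileup of 10 over a background of 2.32, and held 81.2% of the Zfp600 peak's windows. The paired places thus had pileups of 11 and 10 at like offsets from the starts of Zfp600 and Rex2, and neither had a WT peak. The other complete copy, at chr4:146802347-146802605, carried no peak in either list. As at Zfp979, the origin of the fragments cannot be told apart among the identical copies, so the 2 KO peaks cannot be read as separate signals.

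By contrast, the Zfp981 peak had no repeated window in its 260, and its sequence was unmasked. The search was for exact matches, so copies with mismatches were not looked for and the placement of its fragments was not tested. The Zfp414 peak was 100% masked and had 1444 other places with at least 50% of its windows, 125 of them matching in full. It shared windows with 2 WT and 8 other KO peaks, up to 77.3% of them. The KO peak at Zfp629, likewise 100% masked, shared up to 71.0% of its windows with another peak. The Zfp978 peak, also 100% masked, had 133 other places with at least 50% of its windows. The same held for the Zfp804b peak of fold 4.45, second in fold in WT. It was 100% masked, had 1777 such places, and shared windows with 29 other WT and 29 KO peaks. The Zfp438 peak of the WT list, 100% masked, had 364 such places and shared windows with 33 other WT and 54 KO peaks. The Zfp42 peak had 5.35% of its windows repeated and was 49.8% masked.

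Other tandem families were compared by the same measure. Olfactory receptor (Olfr) peaks, 75 in WT and 78 in KO, held no peak that was repeated but under 50% masked (upper bounds 4.80% and 4.62%). Vomeronasal receptor (Vmn1r and Vmn2r) peaks held 12.5% (4.73 to 25.2) of 48 in WT and 13.3% (3.76 to 30.7) of 30 in KO. The Zfp share in WT, 17.9% (6.06 to 36.9), had an interval above the Olfr bound and overlapping the Vmn one. The KO share, 6.90% (0.846 to 22.8), had an interval that reached below the Olfr bound.

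ETS motifs were sought on both strands within 100 bp of each summit, a window of 201 bases. CCGGAAGT was found in 0 of 28 WT and 0 of 29 KO Zfp peaks (upper bounds 12.3% and 11.9%), beside 0.133% and 0.0590% of the other peaks. Its shorter form CCGGAA was also found in 0 and 0, beside 1.03% and 1.14%. The core GGAA, which the other motifs contain, was present in 26 of 28 and 27 of 29, beside 86.5% and 88.7%. The related form AGGAAGT, looked for after the Zfp985 sequence was seen, was found in no WT and 2 KO Zfp peaks, beside 5.30% and 4.89% of the others. These 2 were Zfp985, with 4 matches, and Zfp804b, with 1.

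Zfp36, Zfp36l1 and Zfp36l2 share the name but encode CCCH proteins that bind AU-rich elements of messenger RNAs such as Tnf and speed their decay, and Zfp36 is a textbook LPS-induced gene of macrophages. None of the 3 genes held a peak in either list. The nearest WT peak was 49.2 kb from Zfp36, 308 kb from Zfp36l1 and 338 kb from Zfp36l2. The nearest KO peaks were 361, 367 and 1041 kb away.

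The partners of KRAB zinc-finger proteins were read from a list of 31 corepressor and heterochromatin genes, of which 28 are autosomal. WT peaks named 4 of the 28 (14.3%, 4.03 to 32.7) and KO peaks 3 (10.7%, 2.27 to 28.2), intervals that span the 10.2% and 9.98% over all genes. Trim28 and Setdb1 had no peak in either list. Fam208a, a subunit of the HUSH silencing complex, was the one gene named in both, with a WT peak of pileup 9, fold 5.0 and −log10 q 1.95 and a KO peak of pileup 7 and fold 3.90. The others in WT were Mphosph8, the HUSH subunit that binds methylated histone H3 (pileup 7, fold 3.97), Atf7ip, a SETDB1 partner (pileups 7 and 5), and the chromatin remodeller Smarcad1 (pileup 7). In KO they were the deacetylase Hdac1 (pileup 5) and Smchd1, known for its part in X inactivation (pileup 7). All of these peaks were intronic.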

How the data were processed

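Low-quality reads were removed by the authors with Trimmomatic 0.36, the rest were aligned to GRCm38 by Bowtie2, and SAMtools rmdup took out duplicates, all per the design text of the series. What called and annotated the peaks, at which threshold, and how reads with several placements were treated is not given in the sources used here. Peaks were called per library, each against the input of its own genotype, as the deposited lists are named. Per the file headers, each deposited peak has a pileup signal at the summit, a fold enrichment, a −log10 p, a −log10 q, gene features and a nearest gene with its distance. These authors' values served to describe and rank peaks inside each list. Input reads and signal were not analysed here.

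Samples were grouped by title. Members were taken by gene symbol, and the implied background is (pileup + 1) / fold − 1. All 45 Zfp symbols were found in GENCODE M21. The authors' distance matched that of the peak midpoint within 2 bp for 32 of the 35 members whose nearest gene is a Zfp gene, and the other 3 were the Zfp521 peaks, where the annotated start differs. A peak within 1000 bp of the nearest start counted as near a start. Otherwise its class was taken from the authors' features, with UTRs put before exons and exons before introns. Overlap meant at least 1 bp. Exon and intron numbers refer to the longest coding transcript. Sequence and soft-masking were read from the RefSeq GRCm38 assembly. Windows of 31 bases were looked up strand-independently on all chromosomes, and a copy was a place holding at least 50% of a peak's windows. Only exact matches counted, and sequence outside the assembled chromosomes was not searched. No sequence is printed for the 5 peaks on chromosome 18. The window search, the overlap and cluster steps and the median interval were tested on simulated data, where 11 of 11 checks passed. Python 3.11.15, numpy 2.4.6, pandas 2.3.3, scipy 1.17.1, numba 0.67.0 and matplotlib 3.10.9 were used.

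The members, gene lists and clusters were chosen with earlier results of these data known. Genes named first were those with a peak near a start, in an exon or in a UTR, with q under 0.05, in both lists, among the 10 highest folds of a list or among the 5 with most peaks, together with Zfp36, Zfp36l1 and Zfp36l2. Clusters named were the 8 with most peaks and those of 5 or more genes with none. Only 6 clusters held over 2 peaks, and 9 tied at 2, so the last places went by the highest −log10 p. Further genes, and the other tied clusters the text names, were named after their values were seen, so as to account for the members. Alternatives covered the symbol rule, p and q limits, repeat masking, overlap, start distance, cluster gap and window length.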

Additional observations from a re-analysis of the deposited data

How the results depend on the processing

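No paired analysis was possible because each genotype has 1 immunoprecipitated library. For the same reason no library could be left out, and depth limits every count to its counting interval. Of 35 alternative values, 26 stayed within the spread or 1.5 times of the reported one and 9 did not. The WT count of 28 became 15 when only the nearest gene was read, and the KO count of 29 became 17 when only gene features were read. A q under 0.05 left 2 WT and 2 KO peaks. A −log10 p of at least 4 left 13 KO and 23 WT peaks, out of 2397 KO and 3394 WT autosomal peaks that passed it. The members' share was then 0.542% in KO and 0.678% in WT, beside 0.567% and 0.530% without the limit. Peaks with a pileup of 6 at the lowest background pass that limit in WT (4.08, 5 members) and not in KO (3.95, 7 members), and the other KO members it left out are not covered by that step. At that limit the cluster densities fell to 1.22 per Mb in WT and 0.956 in KO, and those of the autosomes to 1.38 and 0.973, since fewer peaks enter. Near a start, a limit of 500 bp left 0 WT peaks, and 2000 bp gave 2 KO peaks, with Zfp488 added. Other overlap limits left no Zfp peak shared. Added after seeing the data, leaving out the chromosome 4 cluster gave 19 WT and 26 KO peaks, and leaving out peaks with 50% or more of their windows repeated gave 19 and 22.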
